A study of Homo sapiens with 17 samples.

Results

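The genes described are 8 members of the ATF4 stress response, chosen by symbol: the transcription factors ATF4, ATF3, CEBPB and JDP2, and the downstream genes TRIB3, CHAC1, ASNS and PCK2. They are 8 of the 1400 genes present in at least 1 of 4 tables of the authors' own comparisons, 1 table per short hairpin RNA (shRNA). All RNA came from early-passage PC3 cells, an established human prostate cancer line, harvested 7 days after viral infection. The knockdown groups were MED25 shRNA A and MED25 shRNA B, carried by lentivirus, and ETV4 shRNA A and ETV4 shRNA B, carried by retrovirus, with 3 libraries each. MED25 is a subunit of the Mediator complex, which links transcription factors to RNA polymerase II, and ETV4 is an ETS-family transcription factor. The lentiviral control, 3 libraries, carried an shRNA against luciferase per the labels' protocols, and the retroviral control, 2 libraries, an unnamed control shRNA. The series design text instead calls the control an empty vector. No label says whether libraries of a group came from separate cultures.

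ATF4 is a basic leucine zipper (bZIP) factor whose protein is made more efficiently when phosphorylation of the translation factor eIF2 slows general protein synthesis, as happens when amino acids run short, when unfolded protein builds up in the endoplasmic reticulum or when heme is lacking. It pairs with C/EBP proteins, and the pair binds a composite element in the promoters of genes for amino acid synthesis, amino acid uptake and tRNA charging. Several of its targets, among them TRIB3 and ATF3, feed back on the response.

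The composite element was looked for in RefSeq promoter windows on build GRCh38.p14, each running from 250 bases before an annotated start to 50 bases after it. All 8 genes had a window, 16 windows in all because several genes have more than 1 annotated start. The letters TGATGNAA, on either strand, were present for 4 of the 8 genes, ATF3, JDP2, CHAC1 and ASNS. Of all 27305 genes with a window, 4.46% had them. The members have more windows per gene than all genes do. By window, the shares were 25% of the 16 member windows and 3.62% of all 35116. ATF4, CEBPB, TRIB3 and PCK2 had no such match in these windows. The 8 genes were chosen as members of the ATF4 response, and the ATF4 pair binds this element. The shares of the members are therefore not independent of the choice of genes, and their difference from all genes was not tested. Each of the 4 matches is printed on the strand of its gene with 11 bases on either side. Capitals mark the match, which in CHAC1 lies on the other strand and so reads as its reverse complement.
ASNS, chr7:97872458-97872487, minus strand: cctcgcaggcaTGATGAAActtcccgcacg
JDP2, chr14:75427995-75428024, plus strand: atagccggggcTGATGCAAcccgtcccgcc
CHAC1, chr15:40953251-40953280, plus strand: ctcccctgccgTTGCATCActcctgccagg
ATF3, chr1:212565205-212565234, plus strand: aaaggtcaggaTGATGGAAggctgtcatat

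The match began 68 bases before an annotated start of ASNS, 16 before one of JDP2, 209 before that of CHAC1 and 191 before one of ATF3. With the longer letters TGATGNAAT or TGATGNAAC, 3 of the 8 genes matched, ASNS, JDP2 and CHAC1, against 2.18% of all genes. The letters CCGGAA, a 6-base form of the motif of the ETS family, were present for TRIB3 and ASNS. That is 2 of the 8 or 25%, close to the 20.1% of all genes that have them. Other forms of the ETS motif were not searched. No member had the cyclic AMP response element TGACGTCA (2.25% of all genes), the AP-1 site TGANTCA (9.37%) or the endoplasmic reticulum stress element, CCAAT and CCACG with 9 bases between them (0.0916%), in these windows. Apart from the longer letters, which contain the shorter ones, no match overlapped another in these windows. A match describes letters in a window and does not show binding.

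**Figure D1:**
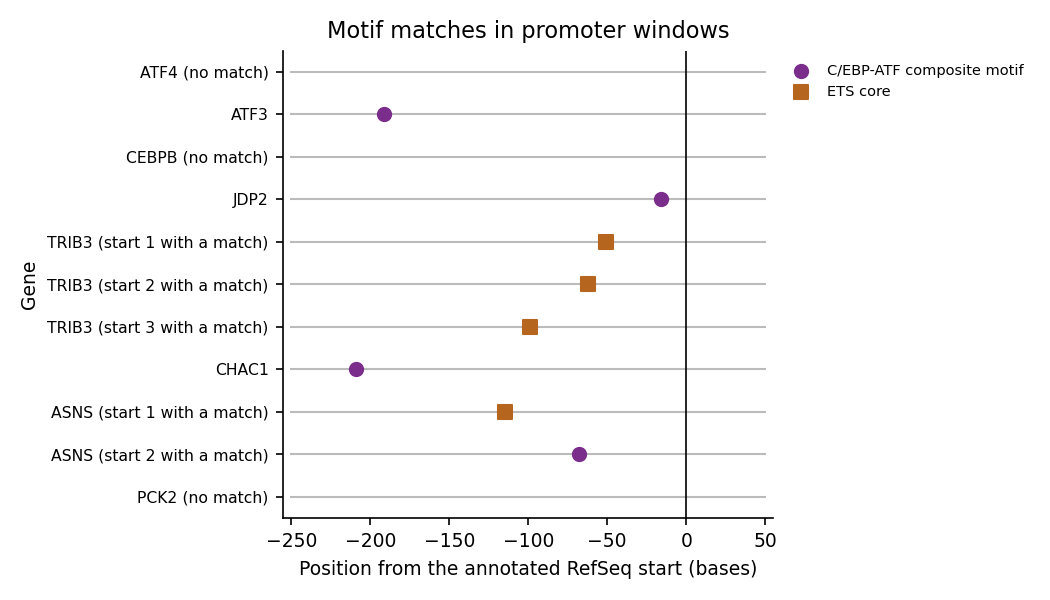
Positions of motif matches in promoter windows of the 8 genes, in bases from the annotated RefSeq start (vertical line), with 1 row per start that has a match. Circles are the composite motif TGATGNAA, between 209 and 16 bases before a start. Squares, labelled ETS core, are the letters CCGGAA, a form of the ETS motif. The 3 squares of TRIB3 are 1 site seen from 3 annotated starts.

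The tables hold, for each gene, 1 log2 ratio and 1 value headed as an adjusted p. No library-level values were analysed here, so library depth is unknown, no value below has an error and no test was run. The members were chosen with these values known, and all their ratios are a description. In the authors' deposited tables the targeted transcript was lower in its own comparisons, MED25 at 51.6% of control for shRNA A and 30.5% for shRNA B, and ETV4 at 26.1% for shRNA A and 15.8% for shRNA B. The direction was read from the order of library numbers in the headers together with these targeted genes. The ratios of the MED25 tables were deposited as control over knockdown by this reading and were turned round, so a negative value means lower after knockdown in all that follows. Every gene in every table was lower by this reading, by at least 1.5-fold. A gene absent from a table may have changed less, risen, missed the authors' minimum or not been tested, and cannot be called unchanged.

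All 8 genes were listed as lower with MED25 shRNA A, 7 of the 8 with ETV4 shRNA A, and none with MED25 shRNA B or ETV4 shRNA B. Of the 1400 genes in at least 1 table, 56.1% were listed with MED25 shRNA A, 26.7% for MED25 shRNA B, 35.4% for ETV4 shRNA A and 7.00% for ETV4 shRNA B. Nothing is read from the members' counts beside these shares, because the values of the same tables chose the members. The 8 ratios with MED25 shRNA A ran from −1.65 to −1.0, with a median of −1.39, against a median of −0.78 over all 786 genes of the authors' deposited table. With ETV4 shRNA A the 7 ratios ran from −2.11 to −0.79, with a median of −1.13, against −0.79 over all 495 genes of the authors' deposited table. All members were lowered at least 2-fold with MED25 shRNA A and 5 of the 7 listed with ETV4 shRNA A, where 24.0% and 23.2% of the listed genes were.

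**Figure D2:**
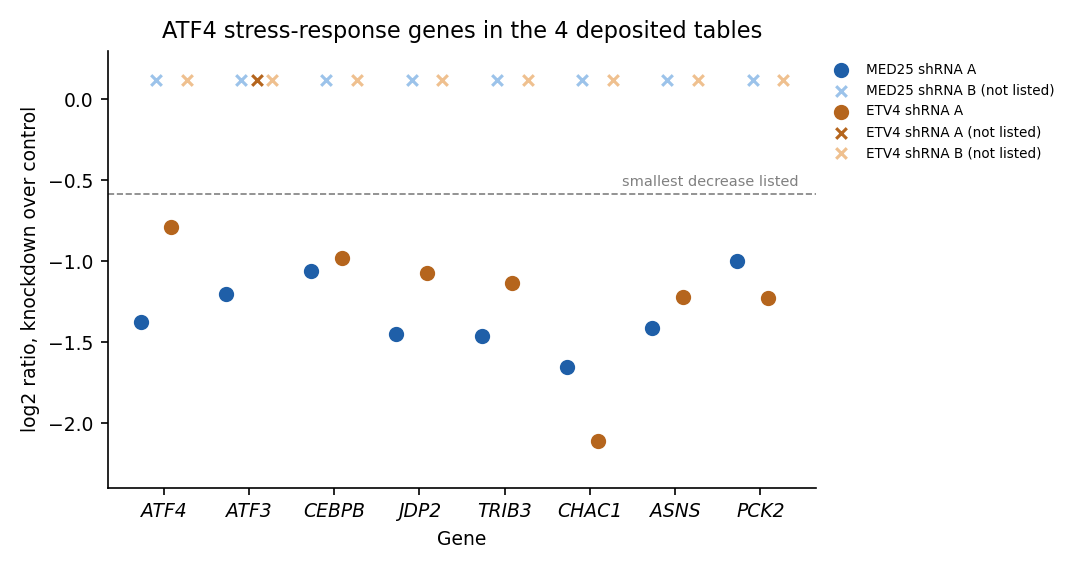
Log2 ratio of knockdown over control for each of the 8 genes in the 4 deposited tables; circles are listed values with no error available, and the dashed line is the smallest decrease listed in any table. Crosses above 0 mark genes that a table does not list and stand for no value: all 8 genes with both B shRNAs, and ATF3 with ETV4 shRNA A.

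Among the factors, ATF4 itself (ENSG00000128272, chromosome 22) stood in the authors' deposited tables at −1.38 for MED25 shRNA A, 38.5% of control, and at −0.79 for ETV4 shRNA A, 57.8% of control. It ranked number 54 of 786 by decrease in the first table and number 245 of 495 in the second, so it stood near the middle of the genes lowered with ETV4 shRNA A. The value of ATF4 is uncertain because of its processed copies: GENCODE release 29 names 4 ATF4 pseudogenes. The closest by identity, ATF4P3, aligned to an ATF4 transcript over 1056 bases at 97.5% identity and was in no table, and ATF4P4 aligned over 1125 bases at 96.2% identity. ATF4P4 (ENSG00000256167) was itself in the authors' deposited table for MED25 shRNA A, at −1.49 or 35.5% of control, and in no other table. The sources used here do not say how the authors assigned reads shared by the gene and its copy.

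ATF3 (ENSG00000162772, chromosome 1), a stress-induced bZIP factor that can repress as well as activate transcription, stood in the authors' deposited table for MED25 shRNA A at −1.20, 43.5% of control. It is the 1 member absent from the table of ETV4 shRNA A. JDP2 (ENSG00000140044, chromosome 14), a bZIP protein related to ATF3 that pairs with Jun proteins, stood in the authors' deposited tables at −1.45 for MED25 shRNA A and −1.07 for ETV4 shRNA A, 36.6% and 47.6% of control. CEBPB (ENSG00000172216, chromosome 20), a C/EBP factor that can pair with ATF4, had ratios of −1.06 and −0.98 for the same shRNAs in the authors' deposited tables, 47.8% and 50.7% of control. Its ratios differed by 0.08 between the A shRNAs, the smallest difference among the 7 genes listed with both. CEBPB and JDP2 each overlap an antisense gene in GENCODE release 29, CEBPB-AS1 and AF111167.2, neither of which any table lists. The sources used here do not say whether counting used strand, so reads of these pairs may not have been told apart.

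Of the downstream genes, CHAC1 (ENSG00000128965, chromosome 15), a gamma-glutamylcyclotransferase that breaks down glutathione, had the lowest ratio of the members in both tables. The authors' deposited tables gave −1.65 for MED25 shRNA A, 31.8% of control, and −2.11 for ETV4 shRNA A, 23.2% of control. By decrease it ranked number 17 of 786 and number 6 of 495, and with ETV4 shRNA A it was lower relative to control than ETV4 itself, at −1.94 in the authors' deposited table. TRIB3 (ENSG00000101255, chromosome 20), a pseudokinase induced by ATF4 that restrains ATF4 activity, had ratios of −1.46 for MED25 shRNA A and −1.13 for ETV4 shRNA A by the authors' deposited tables. These ratios are 36.4% and 45.6% of control.

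ASNS (ENSG00000070669, chromosome 7), asparagine synthetase, which makes asparagine from aspartate and glutamine, had ratios of −1.41 for MED25 shRNA A and −1.22 for ETV4 shRNA A, 37.6% and 42.8% of control, by the authors' deposited tables. Its promoter match above, TGATGAAA, is the one nearest to an annotated start after that of JDP2. PCK2 (ENSG00000100889, chromosome 14), the mitochondrial phosphoenolpyruvate carboxykinase, stood in the authors' deposited tables at −1.0 for MED25 shRNA A, the smallest decrease of the members there, and at −1.23 for ETV4 shRNA A. These ratios are 49.99% and 42.8% of control. In GENCODE release 29 ASNS overlaps AC079781.5 on the same strand, so even stranded counting could leave their reads unresolved, and the pseudogene AC005326.1 on the opposite strand. There are also 4 pseudogenes named for ASNS. Of these, ASNSP4 aligned to an ASNS transcript over 446 bases at 94.4% identity and ASNSP1 over 1047 bases at 90.7%, and the rest had lower identity. How reads shared with these copies were assigned is not stated either, so the value of ASNS carries a limit like that of ATF4. PCK2 overlaps NRL on the opposite strand. None of these genes is in any table.

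The order of the members differed between the A shRNAs. For 5 of the 7 genes listed with both, ATF4, CEBPB, JDP2, TRIB3 and ASNS, the decrease was larger with MED25 shRNA A, and for CHAC1 and PCK2 it was larger with ETV4 shRNA A. ATF4 had the largest difference, with a ratio 0.59 higher with ETV4 shRNA A than with MED25 shRNA A. With ETV4 shRNA A, ASNS and PCK2 were listed at nearly the same ratio while ATF4 was listed at a smaller decrease than any other member. The factors had a median of −1.29 and the downstream genes a median of −1.44 with MED25 shRNA A; with ETV4 shRNA A these were −0.98 over 3 listed factors and −1.22 over 4 downstream genes. These tables share no control library and carry no errors, and the scaling behind them is not stated, so none of these differences was tested.

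Between hairpins of 1 target, 8 members for MED25 and 7 for ETV4 were listed with A, and none with B. By the ratios above, which have no error, the B hairpins left less of the targeted transcript. How this relates to the listing of members was not tested. Of the 786 genes listed with MED25 shRNA A, 19.5% were also listed with MED25 shRNA B, and of the 495 listed with ETV4 shRNA A, 11.5% were also listed with ETV4 shRNA B. The 8 members listed for MED25 and the 7 for ETV4 are therefore among the larger fraction of A genes absent from the B table. The smallest decrease in a B table was 1.5-fold for both targets, and the lowest score was 20.3 for MED25 shRNA B and 20.1 for ETV4 shRNA B. For each target, the table headers give A and B the same control number, and the difference between hairpins was not tested. The headers name a library number for each side of a comparison. They do not say which, or how many, libraries of a group entered each ratio.

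The column headed as an adjusted p held values from 20.1 to 3039 on a scale that is not stated, and is called a score here. The score placed the members differently from the ratio in the table of MED25 shRNA A. Their median rank there was 49 of 786 by decrease and 581 of 786 by score. PCK2 had a score of 21.3, CEBPB 30.1, ATF3 40.4, ASNS 40.7, JDP2 42.0, TRIB3 43.1, CHAC1 54.4 and ATF4 81.7 in the authors' deposited table, whose median was 67.6. Set beside other listed genes within 0.1 of the same ratio, all 8 members scored below the median of those genes. For TRIB3, 2 of 27 such genes had a lower score, for ASNS 2 of 31, for JDP2 2 of 27, for CHAC1 1 of 14 and for PCK2 3 of 122. ATF4 was in the middle, with 17 of 34 below it.

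With ETV4 shRNA A the members' scores ran from 53.1 for TRIB3 to 268 for CHAC1 in the authors' deposited table. Of the 7, 2 lay below that table's median score of 63.6, and 5 lay below the median of other genes of like ratio. ATF4 stood above 135 of 185 such genes and CHAC1 above 3 of 4, while TRIB3 stood above 3 of 43. Raising the minimum score to 50 left 2 of the 8 members with MED25 shRNA A, ATF4 and CHAC1, and all 7 with ETV4 shRNA A. Most listed genes of both tables pass this minimum. By score, CHAC1 at 54.4 ranked number 477 of 786 with MED25 shRNA A, and TRIB3 at 53.1 number 286 of 495 with ETV4 shRNA A. The exact shares of listed genes that pass were not computed. What sets the score apart from the size of the ratio was not tested.

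**Figure D3:**
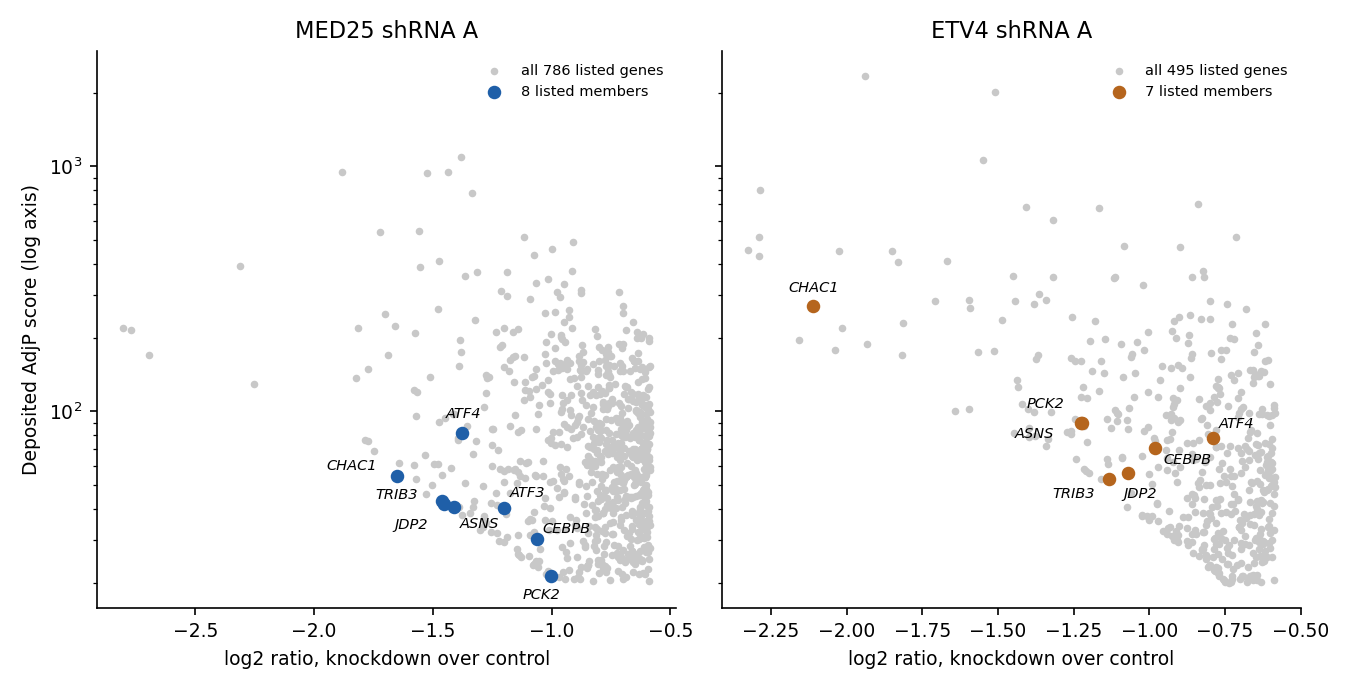
Deposited score (log axis, scale not stated) against the log2 ratio of knockdown over control for all 786 genes listed with MED25 shRNA A (left) and all 495 listed with ETV4 shRNA A (right), members labelled. On the left 7 of the 8 members lie below the table's median score of 67.6, with ATF4 above it at 81.7. On the right scores of the 7 members run from 53.1 to 268, and 2 of the 7 lie below that table's median score of 63.6.

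Both A shRNAs listed 112 genes in common, 14.2% of the genes listed with MED25 shRNA A and 22.6% of those listed with ETV4 shRNA A, and 77 of them, 5.50% of the 1400, were in neither B table. The members made up 7 of these 77. Over the 112 genes the median ratio was −0.99 for MED25 shRNA A and −0.81 for ETV4 shRNA A, while for the 7 members it was −1.41 and −1.13. Of the 77 genes, 13 were lowered at least 2-fold with both A shRNAs, and 5 of those 13 are members, JDP2, TRIB3, CHAC1, ASNS and PCK2.

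The genes most like the members were taken as the 5 other genes in both A tables and neither B table that lay nearest to the members' median point, by distance on the pair of log2 ratios. SESN2, a stress-induced inhibitor of mTORC1 signalling, was nearest. Its ratios in the authors' deposited tables were −1.39 for MED25 shRNA A and −1.14 for ETV4 shRNA A. SESN2 is also on the list of feedback genes and effectors below and is counted there with both A shRNAs. By the same authors' deposited tables, CDKN2B, an inhibitor of cell cycle kinases, had −1.46 and −1.22, and DYNC1I1, a dynein intermediate chain gene, −1.28 and −1.11. FSIP1 had −1.26 and −1.21, and the tubulin gene TUBE1 −1.25 and −1.0, by the authors' deposited tables. The distance ran from 0.02 for SESN2 to 0.21 for TUBE1 on the log2 scale, over 2 comparisons. The members themselves were spread more widely about this point. TRIB3, JDP2 and ASNS lay 0.05, 0.07 and 0.09 from it. ATF4 at 0.34, CEBPB at 0.38, PCK2 at 0.42 and CHAC1 at 1.01 lay farther out than all 5 of these genes.

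**Figure D4:**
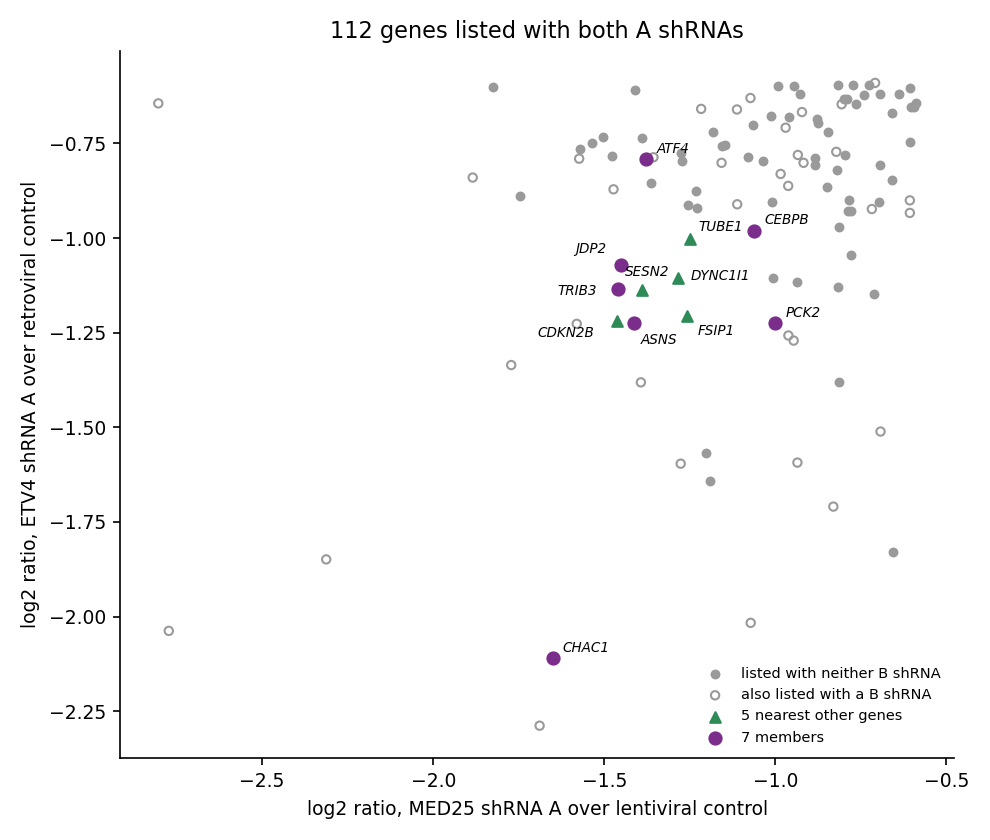
Log2 ratio with MED25 shRNA A (horizontal) against ETV4 shRNA A (vertical), each over the control of its virus, for the 112 genes listed with both; purple circles are the 7 members listed in both, green triangles the 5 nearest other genes, and open circles genes also listed with a B shRNA. The members lie at or below −1.0 with MED25 shRNA A and between −2.11 and −0.79 with ETV4 shRNA A.

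Other genes of the response, other bZIP factors and genes of another stress arm were followed through 5 lists, 88 genes in all. The lists were chosen with earlier results of these data known. With MED25 shRNA A 16 of the 88 were listed, for MED25 shRNA B 5, for ETV4 shRNA A 14 and for ETV4 shRNA B 1. The tables themselves hold 786, 374, 495 and 98 genes in the same order, or 56.1%, 26.7%, 35.4% and 7.00% of the 1400. A lower count with a B shRNA thus goes with a shorter table and was not tested against it. The 1400 are genes in at least 1 table, whereas a list gene need be in none. These shares are therefore no background for the list counts, and the share over all measured genes is unknown. Enzymes of amino acid and one-carbon metabolism were the list with the highest share in both A tables, 7 of 16 with MED25 shRNA A, with a median of −1.36, and 6 of 16 with ETV4 shRNA A, with a median of −0.78. CBS, which starts the conversion of homocysteine to cysteine, had ratios of −1.57 and −0.76 for MED25 shRNA A and ETV4 shRNA A by the authors' deposited tables. MTHFD2, of the mitochondrial folate cycle, had −1.53 and −0.75, and SHMT2, which feeds that cycle from serine, −1.41 and −0.61, by the authors' deposited tables. The serine synthesis enzymes were listed with both A shRNAs as well, PHGDH at −1.36 and −0.85, PSAT1 at −1.23 and −0.92, and PSPH at −1.04 and −0.80, by the authors' deposited tables. MTHFD1L, a mitochondrial folate enzyme, was the 1 enzyme of this list found with a B shRNA; the authors' deposited tables gave it at −1.0 for MED25 shRNA A and −0.59 for MED25 shRNA B, and it was in neither ETV4 table.

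Of 17 feedback genes and effectors, 5 were listed with MED25 shRNA A, 6 with ETV4 shRNA A and 1 with each B shRNA. ULBP1, a ligand for natural killer cells, had ratios of −1.48 for MED25 shRNA A and −0.78 for ETV4 shRNA A, and the stress factor NUPR1 −1.07 and −0.70, by the authors' deposited tables. PPP1R15A, the phosphatase subunit that reverses eIF2 phosphorylation, had −0.99 for MED25 shRNA A and −0.76 for MED25 shRNA B by the authors' deposited tables. DDIT4, an mTORC1 inhibitor, at −0.86, and the secreted protein STC2, at −0.78, were listed in 1 of the authors' deposited tables, that of ETV4 shRNA A. The cystine transporter SLC7A11 had −1.58 for MED25 shRNA A, −1.23 for ETV4 shRNA A and −0.62 for ETV4 shRNA B by the authors' deposited tables, and was the 1 gene of the 5 lists found with ETV4 shRNA B.

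Of 27 other bZIP factors, 3 were listed with MED25 shRNA A, 3 with MED25 shRNA B and 2 with ETV4 shRNA A. CEBPG, a partner of ATF4, had −1.15 for MED25 shRNA A and −0.75 for ETV4 shRNA A, and DDIT3, the stress factor CHOP, −1.05 for MED25 shRNA A, by the authors' deposited tables. The 3 factors listed with MED25 shRNA B were of the AP-1 family, with JUN at −1.41, FOSL1 at −0.82 and JUNB at −0.67 by the authors' deposited table, and JUN had −0.60 for MED25 shRNA A. CREB3L1, a membrane-bound bZIP factor, had −0.73 in the authors' deposited table for ETV4 shRNA A.

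None of 11 genes for the eIF2alpha kinases, eIF2alpha, eIF2B subunits and PPP1R15B was in any table. Of 17 genes of the ATF6 and XBP1 arm of the endoplasmic reticulum stress response, which includes the chaperones HSPA5 and HSP90B1, 1 was listed with MED25 shRNA A and none with the other shRNAs. That gene was HERPUD1, which takes part in degradation of unfolded proteins, at −0.67 in the authors' deposited table. As the tables hold genes that passed the authors' minimum alone, absence from them does not show that a gene was unchanged.

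**Figure D5:**
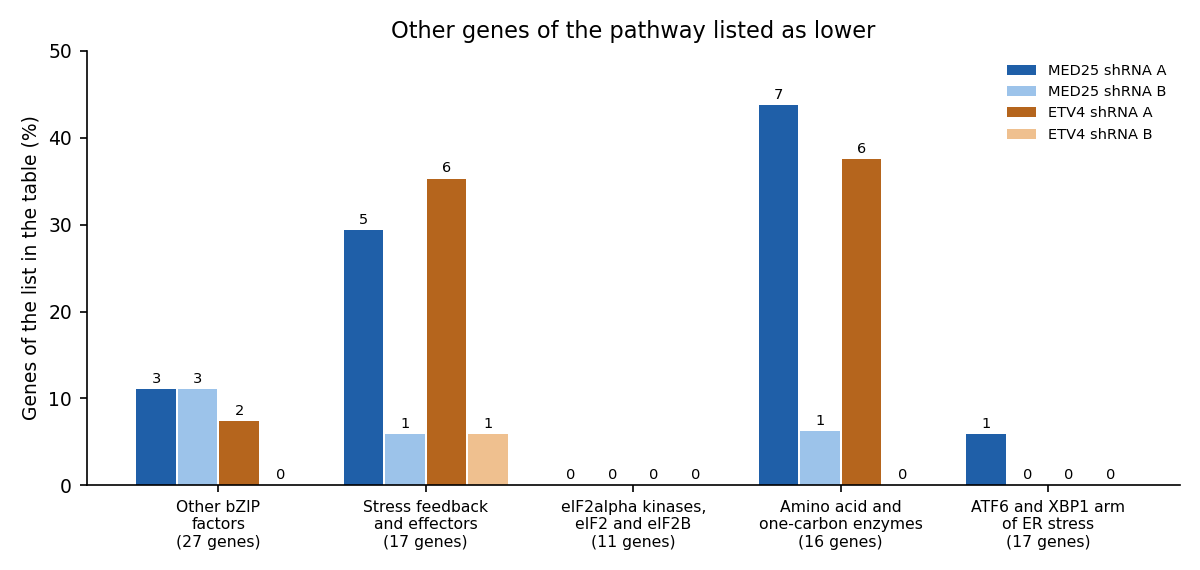
Share of the genes of each list that a table holds as lower, in percent, with the number of genes above each bar, for MED25 shRNA A, MED25 shRNA B, ETV4 shRNA A and ETV4 shRNA B. Amino acid and one-carbon enzymes reach 7 of 16 with MED25 shRNA A and 6 of 16 with ETV4 shRNA A, against 1 of 16 and 0 of 16 with the B shRNAs of the same targets, whose tables are shorter (786 genes for A and 374 for B of MED25, 495 for A and 98 for B of ETV4).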

How the data were processed

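RNA-seq of 17 PC3 libraries was represented here by 4 deposited tables, each comparing 1 shRNA with its control. Per the submitters' processing notes, alignment used Novoalign 3.08.02 and build hg19. The sources used here do not give the counting tool, use of strand, scaling or test. Per the file headers, the authors deposited a log2 ratio and an adjusted p for each gene. The second column exceeds 1 throughout, so the deposited value was treated as a score of unstated scale.

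MED25 ratios were multiplied by −1 to give knockdown over control. Genes were matched by the symbol in the tables. The members and lists were chosen with earlier results of these data known. Values named are those of the members, the targeted genes, up to 6 genes per list by size of ratio, and the 5 genes nearest to the members. MTHFD1L, STC2 and ATF4P4 fall outside this rule and were chosen after their values were seen. Of the 88 list genes, 1 had no identifier in the name table and was matched by symbol alone.

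Promoter windows came from RefSeq (GRCh38.p14), which is not the build of the alignment, and were searched on both strands by a script tested on simulated windows. Promoter shares over whole tables were not computed because fewer than 80% of listed genes matched a window. Pseudogenes were compared with GENCODE release 29 transcripts by blastn 2.17.0+. Python 3.11.15, pandas 2.3.3, numpy 2.4.6 and matplotlib 3.10.9 were used. Alternatives were a minimum absolute log2 ratio of 1, a minimum score of 50, matching by Ensembl identifier, parts of the member list, and longer motif letters. Depth and errors are unknown, and no test was run.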

Additional observations from a re-analysis of the deposited data

How the results depend on the processing

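With a minimum score of 50, the number of members listed with MED25 shRNA A was 2 instead of 8, both absent with MED25 shRNA B, and the number listed with both A shRNAs was 2 instead of 7. The lower count follows from the scores of the other 6 members, which lie under 50. Most listed genes of both A tables pass this minimum, their median scores being 67.6 for MED25 shRNA A and 63.6 for ETV4 shRNA A. The exact shares that pass were not computed, so nothing further is read from these counts. A minimum absolute log2 ratio of 1 left 8 members with MED25 shRNA A and 5 of 7 with ETV4 shRNA A. Matching by Ensembl identifier gave the same counts in all 4 tables. Both B tables held 0 members as deposited, and a stricter minimum can only remove genes, so it could not change that count. No looser minimum than that of the authors could be tried. The members' median with MED25 shRNA A was −1.38 without CHAC1, −1.44 for the downstream genes alone and −1.29 for the factors alone, against −1.39. With ETV4 shRNA A it was −1.10 without CHAC1, −1.22 for the downstream genes and −0.98 for the factors, against −1.13. No paired analysis was possible because the tables hold 1 ratio per gene and no library-level values, and for the same reason no replicate could be left out.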
